A study of Mus musculus with 6 samples.

Results

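A set of 10 genes of nucleic acid sensing was followed in melanoma tumors, chosen by name from the count table. They are the RNA helicases Ddx58 (RIG-I), Ifih1 (MDA5), Dhx58 (LGP2) and Ddx60, the receptor Tlr3, the adaptors Mavs and Tmem173 (STING), the kinase Tbk1 and the transcription factors Irf3 and Irf7. All 10 members were found among the 40166 genes of the table, and 10 of 10 were among the 15355 genes tested. Rigosertib (RGS), a small molecule studied as a RAS mimetic, was given to C57BL/6 mice with tumors of YUMM3.3, a BRAF-mutant mouse melanoma line placed under the skin of the lower back. The RGS group received 300 mg/kg by oral gavage on 5 days a week and the vehicle group received water on the same schedule, and RNA of whole tumors was sequenced after 17 days of treatment. There were 3 vehicle tumors (replicates 7, 8 and 9) and 3 RGS tumors (replicates 10, 11 and 12), each a bulk sample in which tumor, stromal and immune cells were read together.

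The sensors read nucleic acid that is out of place. RIG-I and MDA5 bind double-stranded RNA in the cytosol and signal through MAVS on mitochondria, whereas cyclic GMP-AMP made by the DNA sensor cGAS activates STING. Both adaptors engage TBK1, which phosphorylates IRF3 and IRF7, the factors that start type I interferon transcription, and interferon in turn drives the genes of several sensors and Irf7, so the pathway feeds back on its own parts. In melanoma it is known as a source of interferon that acts on dendritic cells and T cells. TLR3 differs from the others in place, since it reads double-stranded RNA inside endosomes.

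Total counts were 32555494, 26652104 and 22793087 in vehicle replicates 7, 8 and 9, and 21617368, 13837932 and 17768758 in RGS replicates 10, 11 and 12. Every vehicle library was therefore deeper than every RGS library. Levels are given as CPM, a gene's counts relative to its library total after scaling by the trimmed mean of M-values (TMM), and genes were compared with each other only as RPKM, which also divides by gene length in kilobases. A floor of 3 counts stood for 0.0856 CPM in the deepest library and 0.226 CPM in the shallowest; floors and counting intervals cover counting error only.

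Of the 10 members 5 were lower in RGS tumors by edgeR's quasi-likelihood F test with Benjamini-Hochberg adjustment over all 15355 genes (adjusted p under 0.05), and they were the 4 helicase genes and Irf7. Of all genes tested, 16.5% were called lower and 16.3% were called higher. With all 6 tumors no member was called higher by edgeR or DESeq2, 1 member (Tmem173) was higher at an unadjusted p under 0.05, and limma voom called 1 member (Mavs) higher. In 6 members the RGS tumors all lay below the vehicle tumors, which was so for 24.1% of all genes tested, while groups that did not overlap in either direction were seen in 45.8%. The median log2 fold change of RGS over vehicle was -1.52 for the 10 members and -0.05 for all genes tested. With Ddx60 and Tlr3, whose RGS counts were at or under the floor, set to their bounds, the members' median was -0.84. When libraries were scaled by their totals alone, the median of all genes moved to -0.19 and the calls to 1870 higher and 3152 lower, against 2503 higher and 2533 lower with TMM. The shares of all genes called also depend on the tumors and the method. Without vehicle replicate 8 there were 1776 higher and 1717 lower of 16088 genes tested, and limma voom gave 3407 higher and 3408 lower of 15355.

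**Figure D1:**
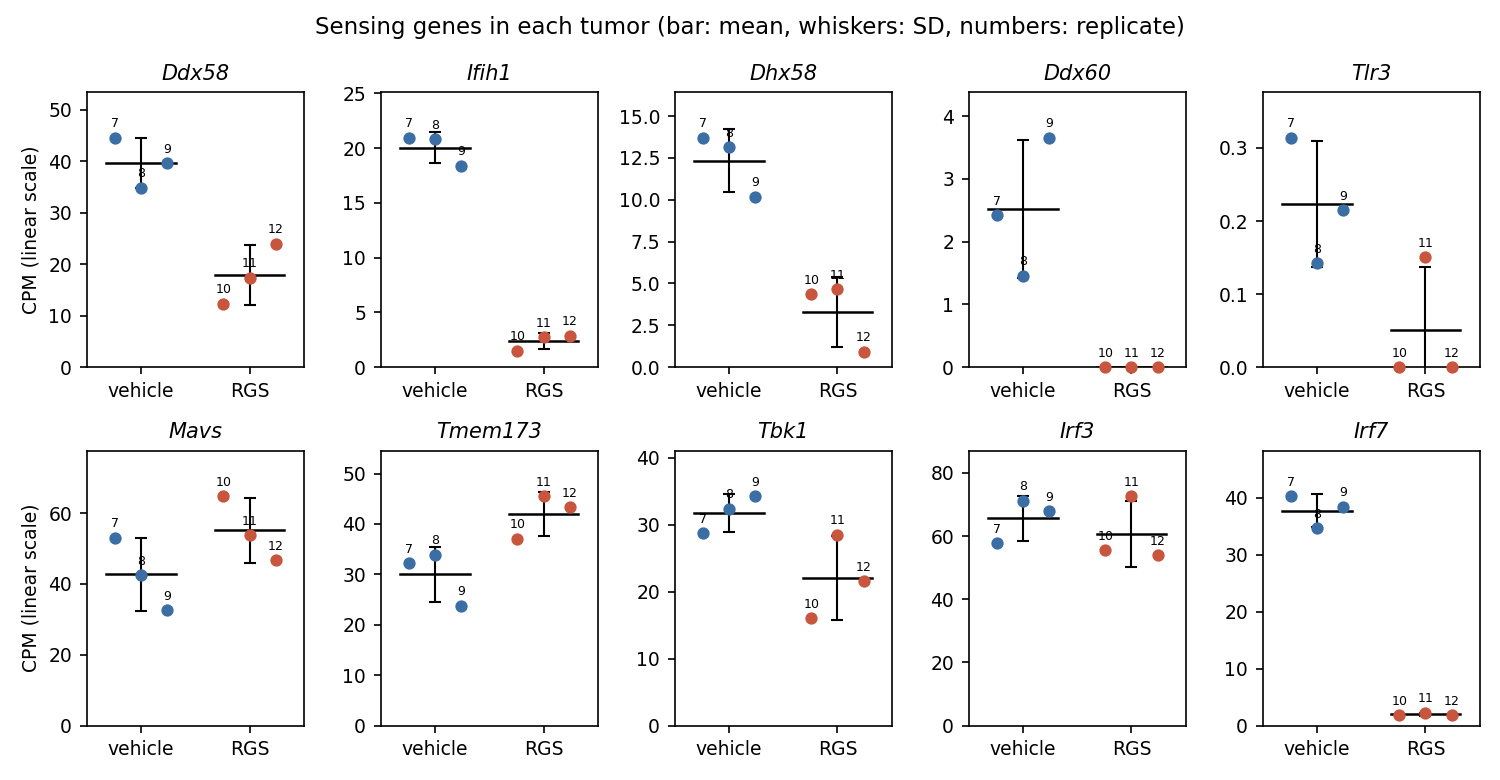
CPM (vertical axes, linear from 0, 1 scale per gene) of the 10 sensing genes in 3 vehicle tumors (blue) and 3 RGS tumors (red), with replicate numbers, group means (bars) and SD (whiskers). Irf7 lay between 34.6 and 40.3 CPM in vehicle tumors and between 1.80 and 2.26 CPM in RGS tumors, whereas the groups overlapped for Irf3, Mavs and Tlr3.

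Promoter sequences are shown because 3 of the 4 helicase genes that fell together carry the core of the interferon-stimulated response element at their start sites. Promoters of 300 bases, from 250 before to 50 after the start, came from RefSeq (GRCm38.p6) and were matched by symbol for 8 of the 10 members (not Dhx58 and Tmem173). The core was searched as GAAANNGAAA on both strands and was held by 1122 of 32544 distinct promoters (3.45%). It was found in Ddx58, Ifih1 and Ddx60 and not in Tlr3, Mavs, Tbk1, Irf3 or Irf7. Capitals mark each match, on either strand, and every sequence reads 5′ to 3′ on the strand of its gene:
Ddx60: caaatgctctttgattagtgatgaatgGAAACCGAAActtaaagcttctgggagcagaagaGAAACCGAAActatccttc
Ddx58: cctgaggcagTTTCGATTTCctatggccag
Ifih1: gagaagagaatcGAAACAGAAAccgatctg
The Ddx60 stretch (chr8:61928007-61928086, plus strand) ends just before the start site and holds the core at positions -53 to -44 and again at -19 to -10. The Ddx58 stretch (chr4:40239804-40239833, minus strand) spans the start site, and its match, in the reverse orientation, covers bases 3 to 12 counted from the RefSeq start, which lies 3 bases inside the GENCODE gene end. The Ifih1 stretch (chr2:62646206-62646235, minus strand) lies in an exon of the gene, with the match at bases 33 to 42. In the GENCODE M21 annotation 25 bases of the Ddx58 stretch were 5′ UTR, 6 bases of the Ifih1 stretch were UTR, and 22 bases of the Ddx60 stretch were in an exon of the gene model Gm45418. The gamma-activated site, searched as TTCNNNGAA, was in 8.33% of promoters and in none of the 8 matched members. A match describes these letters in this window and does not show that a factor binds there. Among tested genes with a matched promoter, 27.7% of the 394 with the response element core and 17.4% of the 10285 without it were called lower. Called higher were 12.9% of those with the core and 17.9% of those without it.

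Ddx58, the gene of RIG-I (chr4:40203773-40239828), was read at 44.6, 34.9 and 39.6 CPM in vehicle replicates 7, 8 and 9 and at 12.4, 17.4 and 23.97 CPM in RGS replicates 10, 11 and 12. All RGS tumors were below all vehicle tumors, and RGS replicate 12, the highest of its group, came nearest to the vehicle range. The means were 39.7 ± 4.83 and 17.9 ± 5.83 CPM (SD, n = 3 each), a 2.22-fold lower level in RGS tumors (log2 fold change -1.15, SE 0.24, adjusted p = 0.00110). This was the smallest of the differences among the 5 members called lower. Less RNA per cell and fewer cells that carry the RNA cannot be told apart in bulk samples.

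Ifih1, the gene of MDA5 (chr2:62595798-62646255), stood at 20.9, 20.8 and 18.4 CPM in vehicle replicates 7, 8 and 9 and at 1.51, 2.71 and 2.87 CPM in RGS replicates 10, 11 and 12. The vehicle tumors were close to each other and far above each RGS tumor. Between means of 20.1 ± 1.43 and 2.37 ± 0.742 CPM (SD, n = 3 each) the level fell 8.47-fold (log2 fold change -3.09, SE 0.34, adjusted p = 1.41e-06). MDA5 prefers long double-stranded RNA, whereas RIG-I reads RNA ends, so their transcripts were also set against each other. The ratio of Ifih1 to Ddx58 RPKM within a tumor, which no scaling factor moves, was 0.406, 0.515 and 0.401 in vehicle replicates 7, 8 and 9 and 0.106, 0.135 and 0.104 in RGS replicates 10, 11 and 12. Every RGS tumor had the lower ratio, with an exact two-sided permutation p = 0.1, the smallest that 3 against 3 tumors can give.

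Dhx58 encodes LGP2 (chr11:100694884-100704271), a helicase without the signaling domains of RIG-I and MDA5 that tunes the response of both. It was read at 13.7, 13.1 and 10.2 CPM in vehicle replicates 7, 8 and 9, and at 4.35, 4.67 and 0.917 CPM in RGS replicates 10, 11 and 12. The groups did not overlap, but RGS replicate 12 was well below the other RGS tumors with 15 counts, against 92 and 62. Means of 12.3 ± 1.89 and 3.31 ± 2.08 CPM (SD, n = 3 each) gave a 3.73-fold lower level (log2 fold change -1.90, SE 0.46, adjusted p = 0.00387). With RGS replicate 12 the lowest for Dhx58 and the highest for Ddx58 and Ifih1, the helicase genes did not rank the RGS tumors alike.

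Ddx60 (chr8:61928087-62038244), an interferon-inducible helicase described as a cofactor of RIG-I-like receptors, had 85, 41 and 85 counts in vehicle replicates 7, 8 and 9 and 0 counts in each of the 3 RGS tumors. Its vehicle level was low, at 2.42, 1.46 and 3.65 CPM. Set against the highest floor among the RGS libraries, 3 counts or 0.226 CPM, the vehicle mean of 2.51 CPM made Ddx60 at least 11.1-fold lower in RGS tumors (adjusted p = 6.00e-04). It is the member with the response element core at both positions shown above.

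Tlr3 (chr8:45395665-45411080), the endosomal receptor, was close to the limit of detection in every library. It had 11, 4 and 5 counts in vehicle replicates 7, 8 and 9 and 0, 2 and 0 counts in RGS replicates 10, 11 and 12. The groups overlapped, since the 0.151 CPM of RGS replicate 11 was above the 0.142 CPM of vehicle replicate 8. Over the pooled libraries 20 vehicle counts against 2 RGS counts gave a ratio of 5.88 (exact 95% interval 1.43 to 51.9, counting error only). The edgeR test over tumors did not pass the threshold (adjusted p = 0.378), which at this depth does not show that Tlr3 was unaltered.

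Mavs and Tmem173 encode the adaptors through which the RNA and DNA branches signal. Mavs (chr2:131234063-131248025) was read at 53.1, 42.4 and 32.6 CPM in vehicle replicates 7, 8 and 9 and at 64.7, 53.8 and 46.7 CPM in RGS replicates 10, 11 and 12. Both groups were widely spread and overlapped, since vehicle replicate 7 was above RGS replicate 12. The means of 42.7 ± 10.2 and 55.1 ± 9.07 CPM (SD, n = 3 each) differed by a log2 fold change of 0.37 (SE 0.20, adjusted p = 0.177). Without vehicle replicate 7 the log2 fold change was 0.55 and passed the threshold (adjusted p = 0.0331, in a range of 0.0331 to 0.527 over 15 alternatives).

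Tmem173, the gene of STING (chr18:35733678-35740554), was read at 32.2, 33.9 and 23.8 CPM in vehicle replicates 7, 8 and 9 and at 37.1, 45.5 and 43.3 CPM in RGS replicates 10, 11 and 12. Every RGS tumor was above every vehicle tumor, the only member for which this was so. Its means were 30.0 ± 5.41 and 42.0 ± 4.35 CPM (SD, n = 3 each), and the difference missed the threshold (log2 fold change 0.48, SE 0.20, adjusted p = 0.0714). The adaptors thus had positive log2 fold changes where the helicases had negative ones, under each scaling tried.

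**Figure D2:**
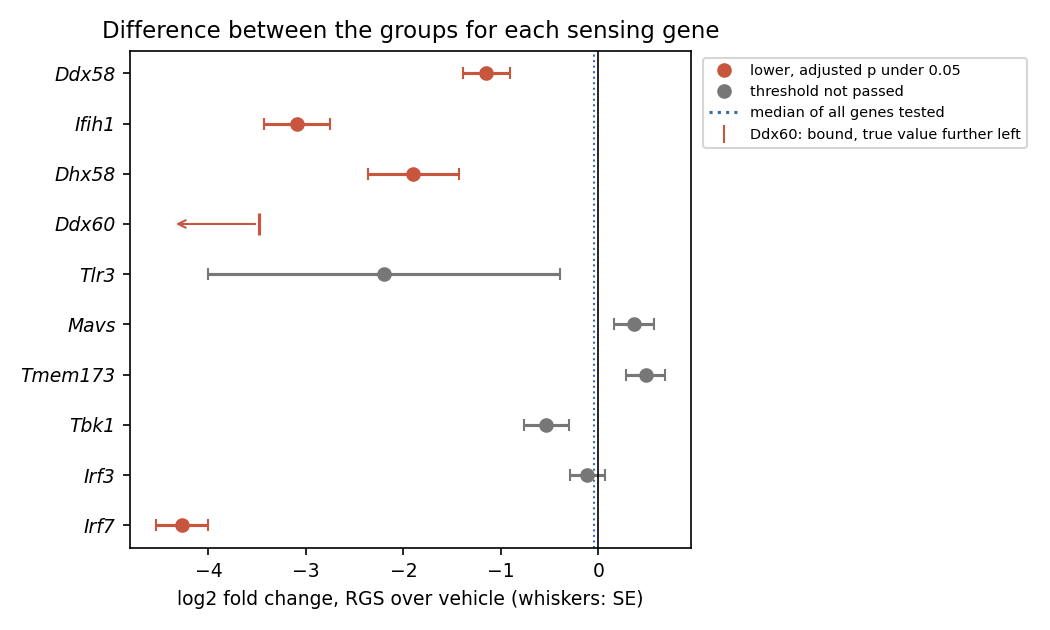
Log2 fold change of RGS over vehicle (horizontal axis) with its standard error (whiskers) for each sensing gene, in red where the adjusted p was under 0.05 and in gray where it was not. Ddx60 is drawn at its bound with an arrow towards lower values, the dotted line is the median of all genes tested (-0.05), and Mavs and Tmem173 are the members to the right of 0.

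Tbk1 (chr10:121546455-121586787), the kinase shared by the adaptors, was read at 28.7, 32.4 and 34.2 CPM in vehicle replicates 7, 8 and 9 and at 16.0, 28.5 and 21.5 CPM in RGS replicates 10, 11 and 12. The groups did not overlap, but RGS replicate 11 was just below the lowest vehicle tumor. The means were 31.8 ± 2.80 and 22.0 ± 6.22 CPM (SD, n = 3 each), with a log2 fold change of -0.53 (SE 0.23) that missed the threshold in the edgeR fit (adjusted p = 0.0836). It passed when libraries were scaled by total alone (log2 fold change -0.67, adjusted p = 0.0321), and without RGS replicate 11 (-0.77, adjusted p = 0.0266), in a range of 0.0239 to 0.266 over 15 alternatives. Set against the median of all genes under the same scaling, the value with totals alone was -0.49.

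Irf3 (chr7:44997648-45002848), the factor present before any signal, was read at 57.7, 71.2 and 67.9 CPM in vehicle replicates 7, 8 and 9 and at 55.5, 72.6 and 53.9 CPM in RGS replicates 10, 11 and 12. The groups overlapped across most of their range. Its means were 65.6 ± 7.01 and 60.7 ± 10.4 CPM (SD, n = 3 each), with a log2 fold change of -0.11 (SE 0.18, adjusted p = 0.667).

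Irf7 (chr7:141262706-141266481), the factor that interferon induces and that widens the interferon response, had the lowest adjusted p of the members. It was read at 40.3, 34.6 and 38.4 CPM in vehicle replicates 7, 8 and 9 and at 1.80, 2.26 and 1.83 CPM in RGS replicates 10, 11 and 12. Both groups were tight and far apart. The means of 37.8 ± 2.88 and 1.96 ± 0.256 CPM (SD, n = 3 each) gave a 19.2-fold lower level in RGS tumors (log2 fold change -4.27, SE 0.27, adjusted p = 1.28e-09). Counted from the most negative fitted value, it was at rank 427 of the 15355 genes tested.

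The factors that TBK1 phosphorylates were also set against each other within each tumor. The ratio of Irf7 to Irf3 RPKM was 0.636, 0.444 and 0.516 in vehicle replicates 7, 8 and 9 and 0.0295, 0.0284 and 0.0310 in RGS replicates 10, 11 and 12. The RGS tumors were nearly equal in this ratio, and each was far below each vehicle tumor. The sensors gave the same order against their adaptor: the ratio of Ifih1 to Mavs had a mean of 0.198 ± 0.0348 in vehicle tumors and 0.0185 ± 0.00803 in RGS tumors (SD, n = 3 each). For Ddx58 to Mavs the means were 0.455 ± 0.105 and 0.162 ± 0.0769 (SD, n = 3 each). All 4 ratios compared were lower in every RGS tumor than in any vehicle tumor, each with an exact two-sided permutation p = 0.1 (0.1 after adjustment over the 4). Each ratio has a numerator already called lower in the same counts, and the pairs share genes. The 4 ratios thus restate the fold changes above and are not separate support for them. A ratio shows unequal change of its genes and not that either stayed the same.

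**Figure D3:**
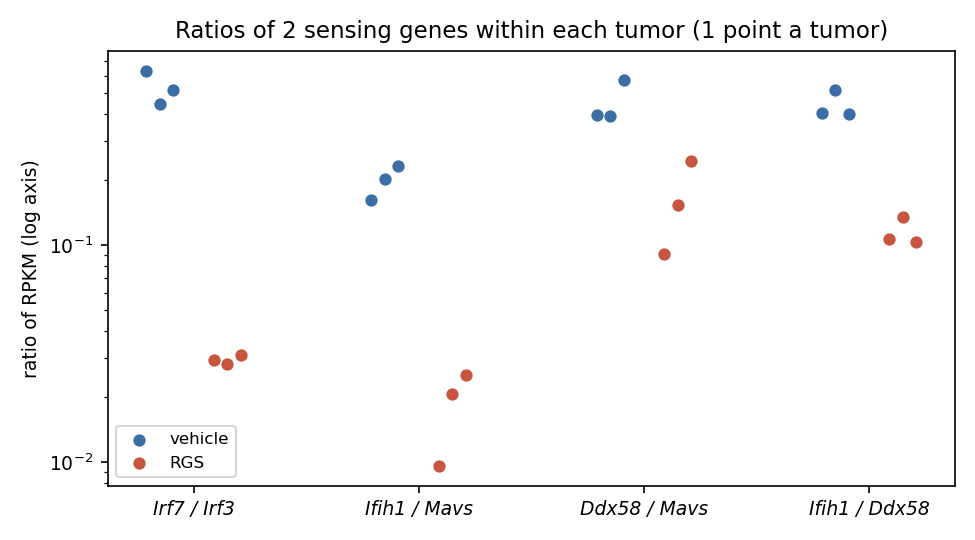
Ratios of the RPKM of paired sensing genes within each tumor (vertical log axis, no unit), 1 point a tumor, vehicle in blue and RGS in red. In each of the 4 pairs the 3 RGS tumors lie below the 3 vehicle tumors, with the widest gap for Irf7 over Irf3 (means 0.532 and 0.0297).

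Per length, the members spanned a wide range in vehicle tumors, with the transcription factor Irf3 at the top (19.1 ± 2.04 RPKM) and Tlr3 at the bottom (0.0430 ± 0.0165 RPKM; SD, n = 3 each). Tmem173 (13.0 ± 2.35 RPKM), Mavs (12.8 ± 3.06 RPKM) and Irf7 (10 ± 0.761 RPKM) followed Irf3. The ranges of Tmem173 and Mavs overlapped, as did those of Mavs and Irf7, so these neighbours were not separated. Tbk1 (8.12 RPKM), Ddx58 (5.63 RPKM), Dhx58 (3.77 RPKM), Ifih1 (2.46 RPKM) and Ddx60 (0.289 RPKM) then followed with ranges that did not overlap from one gene to the next.

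In RGS tumors Tmem173 (18.2 ± 1.89 RPKM), Irf3 (17.6 ± 3.01 RPKM) and Mavs (16.5 ± 2.71 RPKM; SD, n = 3 each) overlapped at the top. Below them came Tbk1 (5.63 RPKM), Ddx58 (2.54 RPKM) and Dhx58 (1.012 RPKM). Irf7 went from rank 4 in vehicle tumors to rank 7 in RGS tumors (0.520 ± 0.0678 RPKM), where its range overlapped that of Dhx58. Irf3, Tmem173, Mavs and Tbk1 were thus read above each helicase gene in both groups, whereas Irf7 was above the 4 helicase genes in vehicle tumors, and of these only Ifih1 and Ddx60 had a mean below that of Irf7 in RGS tumors.

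**Figure D4:**
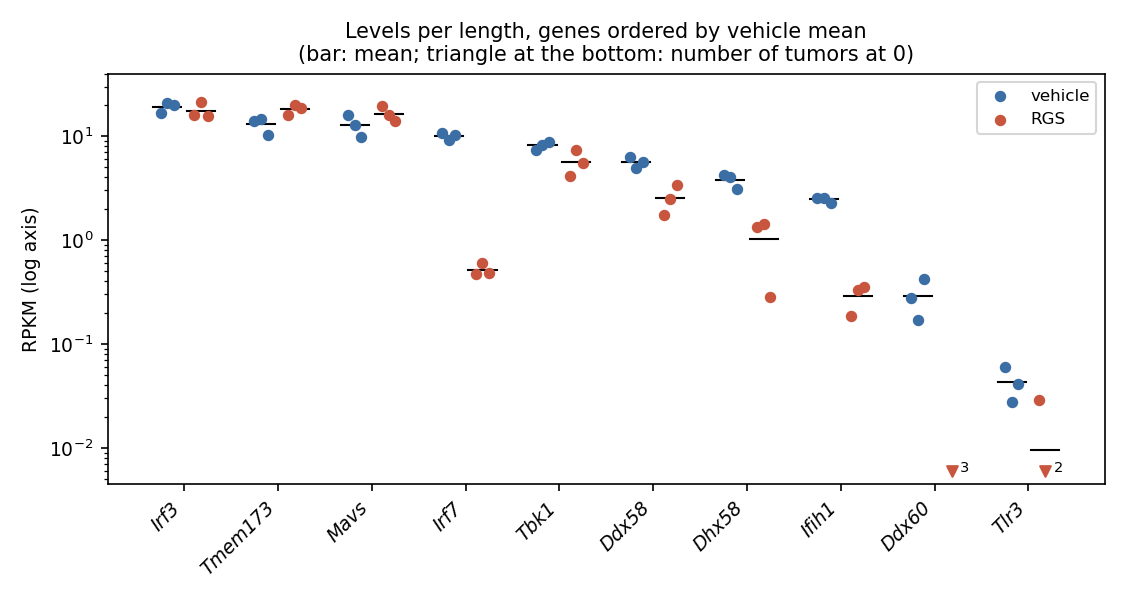
RPKM (vertical log axis) of the sensing genes in each vehicle tumor (blue) and RGS tumor (red), ordered by the vehicle mean, with bars for group means. Triangles at the bottom give the number of tumors at 0, 3 RGS tumors for Ddx60 and 2 for Tlr3; Irf7 drops from 10 to 0.520 RPKM.

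Some reads of the members may belong to neighbours, since the strand setting of the counting is not given in the sources used here. Irf7 shares 45 exon bases with Phrf1 on the opposite strand, which had between 1307 and 3404 counts. Irf3 shares 88 with Bcl2l12 (83 to 329 counts), Dhx58 shares 141 with its antisense gene Dhx58os (0 to 5 counts) and Tlr3 shares 381 with Gm45542. Reads on these bases cannot be assigned to a strand here. The other 6 members share no exon base with another gene of the annotation.

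The wider pathway was described with 140 other genes in 9 lists, of which 115 were tested; 43 were lower, 12 were higher and 60 did not pass, with a median log2 fold change of -0.45. The counts of each list stand against 16.5% lower, 16.3% higher and a median of -0.05 for all genes tested, and their differences from these were not tested. In cytosolic DNA sensing 7 of 15 genes were lower (46.7%) and 3 higher (median -0.59). Mb21d1, which encodes cGAS, the enzyme upstream of STING, fell from 16.3 ± 1.89 to 4.31 ± 0.787 CPM (log2 fold change -1.91, adjusted p = 1.29e-04), and Mndal, of the p200 family, fell from 32.4 ± 4.03 to 12.3 ± 2.09 CPM. Aim2, a DNA sensor that builds inflammasomes, rose from 1.73 ± 0.584 to 16.5 ± 5.55 CPM (log2 fold change 3.26, adjusted p = 5.15e-06), and the ubiquitin ligase gene Trim56 rose from 41.1 ± 11.2 to 65.9 ± 7.25 CPM. In every RGS tumor the cGAS transcript was below the vehicle range and the STING adaptor transcript Tmem173 was above it. Of these Tmem173 did not pass the threshold (edgeR adjusted p = 0.0714), and groups without overlap were seen in 45.8% of all genes tested. Counts of Mndal and its p200 relatives, and those of the Oas1, Ifit3 and interferon alpha copies below, are uncertain where reads fit several copies.

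Among cofactors of RNA sensing and RNA-binding effectors, 11 of 24 were lower (45.8%) and 13 did not pass (median -0.74). Trim25, a ubiquitin ligase of the RIG-I pathway, fell from 95.5 ± 9.71 to 37.8 ± 7.92 CPM, and Oasl2, of the oligoadenylate synthetase family, fell from 15.1 ± 4.28 to 0.104 ± 0.121 CPM. In adaptor and kinase complexes 1 of 15 was lower, 2 were higher and 12 did not pass (median 0.22). Tank, a scaffold of TBK1, fell from 65.8 ± 13.6 to 43.0 ± 5.48 CPM. Ticam1, the adaptor TRIF of TLR3, rose from 20.2 ± 4.25 to 38.8 ± 2.01 CPM, and Tax1bp1, a ubiquitin-binding adaptor, rose from 243.8 ± 0.411 to 363.2 ± 41.1 CPM. Of the receptor proteins and partners in endosomes beside Tlr3, 1 of 4 tested was higher and 3 did not pass (median 0.07), and Tlr7 and Tlr9 had no count in any tumor. The gene called higher was Slc15a4, an endolysosomal transporter, at 27.9 ± 3.20 and 44.3 ± 2.41 CPM.

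Negative regulators had 3 lower and 1 higher of 16 (18.8% lower, near the 16.5% of all genes; median -0.26, or -0.17 with the gene at the floor set to its bound). Usp18, a brake on interferon receptor signaling that interferon itself induces, fell from 19.1 ± 3.00 to 1.36 ± 0.418 CPM, Atg12 of the autophagy conjugation system fell from 104.8 ± 16.3 to 72.8 ± 12.4 CPM, and the deubiquitinase gene Otud5 rose from 83.1 ± 1.26 to 126.5 ± 8.96 CPM. Of 6 other interferon regulatory factors tested, 2 were lower and 1 was higher (median -0.48). Irf9, a factor of the interferon response, fell from 46.5 ± 5.84 to 6.94 ± 0.676 CPM, and Irf1 fell from 49.6 ± 2.68 to 17.4 ± 4.47 CPM.

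Type I and III interferons were read at low levels, with list sums of 0.285, 0.0712 and 0 CPM in vehicle replicates 7, 8 and 9 and of 3.08, 0.527 and 2.63 CPM in RGS replicates 10, 11 and 12. The lowest RGS sum, in replicate 11, was above the highest vehicle sum, in replicate 7. Both rest on few counts, and vehicle replicate 7, the deeper library, had more of them than RGS replicate 11. Of 19 such genes listed, 13 were in the count table; of these, 8 had no count in any tumor, and 1, Ifne, was tested and did not pass. Ifnb1 had 3 counts in vehicle replicate 7, 4 counts in RGS replicate 11 and none in the other tumors. Ifne had 7, 2 and 0 counts in vehicle replicates 7, 8 and 9 and 45, 0 and 6 in RGS replicates 10, 11 and 12. Ifnab (2, 3 and 11 counts), Ifna13 (18, 0 and 4) and Ifna4 (0, 0 and 22) were read in RGS replicates 10, 11 and 12 and had no count in vehicle tumors. Interferon receptors and signal carriers had 3 lower, 3 higher and 6 not passing of 12 (25% each for lower and higher, against 16.5% and 16.3% of all genes; median 0.23). Stat2, a signal carrier, fell from 47.0 ± 1.42 to 11.8 ± 4.85 CPM, while the receptor gene Ifnar1 rose from 50.6 ± 5.97 to 91.2 ± 10.6 CPM and the feedback inhibitor gene Socs1 rose from 17.3 ± 2.17 to 35.1 ± 3.68 CPM.

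Interferon-stimulated output genes had 16 lower, 1 higher and 5 not passing of 22, with a median of -3.49, or -3.16 with genes at the floor set to their bounds. Ifit3, an antiviral effector gene, fell 31.1-fold, from 40.2 ± 6.61 to 1.29 ± 0.889 CPM (log2 fold change -4.89, adjusted p = 1.13e-08). Its RGS mean depends on replicate 10, at 2.32 CPM, against 0.828 and 0.734 CPM in RGS replicates 11 and 12. Without that tumor the fold would be larger. Bst2, which tethers budding virus, fell from 173.9 ± 21.4 to 23.6 ± 7.33 CPM, and Cxcl10, a chemokine that draws T cells, fell from 18.3 ± 2.64 to 1.34 ± 1.29 CPM. Ifitm3, a membrane protein that blocks virus entry, was the gene called higher, from 323.6 ± 10.6 to 799.7 ± 174.7 CPM. The helicase sensors and Irf7 are also known as interferon-induced genes. Whether interferon had a part in their lower levels here was not tested.

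**Figure D5:**
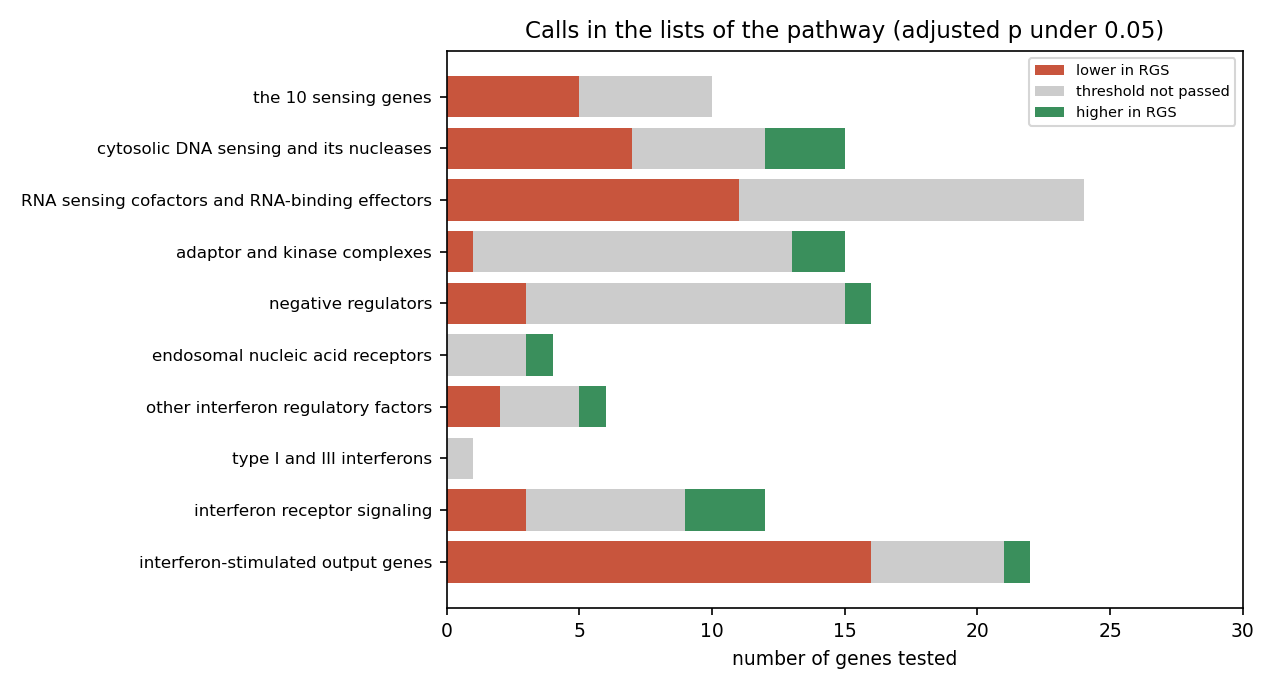
Number of genes tested (horizontal axis) in the 10 sensing genes and in each list of the wider pathway, split into lower in RGS tumors (red), not past the threshold (gray) and higher (green). Lower calls take 16 of 22 interferon-stimulated output genes and 11 of 24 RNA sensing cofactors and effectors, against 1 of 15 genes of the adaptor and kinase complexes.

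Marker genes of cell types were read beside these results, and their part in them was not tested. The gene named as leading a list is the one with the highest mean RPKM, in both groups unless stated. The labelled tissue is melanoma, yet the pigment genes Mlana, Tyr and Dct had no count in any tumor. The 7 melanocyte markers, led by Mitf, summed to 7.68, 5.17 and 4.94 CPM in vehicle replicates 7, 8 and 9 and to 10.5, 9.11 and 4.53 CPM in RGS replicates 10, 11 and 12. Leukocyte markers summed to 248.3, 187.7 and 187.0 CPM in vehicle tumors and to 1002, 1028 and 919.3 CPM in RGS tumors in the same order, so every RGS tumor was above every vehicle tumor. Laptm5 led the 5 genes, and 2 of 2 tested (Laptm5 and Cd53) were higher, while Ptprc, which encodes the defining antigen CD45, had no count. Coro1a had at most 20 counts in a tumor and Cd52 had 10 counts in vehicle replicate 9 only, so the sums rest on Laptm5 and Cd53. Macrophage markers summed to 64.7, 64.0 and 58.8 CPM and to 65.4, 69.4 and 88.2 CPM, led by Cd68, with Adgre1, C1qc and Fcgr1 at 0. Csf1r, Mrc1, C1qa and C1qb had at most 7 counts in any tumor, so nearly all of each sum was Cd68, which did not pass the threshold. Plasmacytoid dendritic cell markers, a cell type known for high Irf7, summed to 230.5, 199.9 and 202.6 CPM and to 418.5, 474.5 and 519.3 CPM. Here Tcf4 led and made up nearly all of each sum, at 229.3, 198.1 and 199.8 CPM and at 418.4, 474.4 and 519.3 CPM. The sums thus follow Tcf4 and not the list as a whole. Of 2 tested, 1 was higher (Tcf4) and 1 lower (Cox6a2, at 0 counts in each RGS tumor). Ccr9 had at most 5 counts in a tumor, and Siglech, Ly6d and Klk1 were at 0 in all tumors.

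Conventional dendritic cell markers summed to 5.88, 7.77 and 8.51 CPM in vehicle replicates 7, 8 and 9 and to 12.02, 8.21 and 14.3 CPM in RGS replicates 10, 11 and 12. The groups overlapped in this sum, and its genes went different ways. Per length Zbtb46 led in vehicle tumors (0.828 ± 0.213 RPKM) and Flt3 in RGS tumors (1.28 ± 0.402 RPKM; SD, n = 3 each). Flt3 was called higher, whereas Zbtb46 had its lowest vehicle value above its highest RGS value and did not pass (log2 fold change -1.12, adjusted p = 0.0919), and Itgax and Cd209a were at 0. T cell markers summed to 0, 0 and 0.602 CPM and to 1.42, 1.21 and 0.612 CPM, all with Cd3d, Cd3e, Cd3g, Cd8a and Cd8b1 at 0. The vehicle reads came from Cd4, in replicate 9, and the RGS reads from Trac, which was called higher. Sums were at most 0.0712 CPM for NK cell markers, 0.473 for B cell, 0.673 for neutrophil, 0.890 for skeletal muscle and 2.56 for keratinocyte markers in any tumor. Endothelial markers, led by Cdh5, summed to 1.198, 0.997 and 0.946 CPM and to 6.81, 3.24 and 11.2 CPM, with 1 of 3 tested higher and Emcn at 0. Fibroblast markers, led by Pdgfra, summed to 253.6, 196.0 and 186.6 CPM and to 152.9, 136.7 and 137.4 CPM, with 2 of 4 tested lower, 1 higher and Lum at 0. Of 70 marker genes in 13 lists, 29 had no count in any tumor.

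Genes with the profile most like each called member over the 6 tumors were picked by Pearson correlation of log2 CPM among genes with a mean of at least 10 CPM, as a description. They were Cnep1r1, Zfp445 and Tmem135 for Ddx58, Cyr61, Ect2 and Myc for Ifih1, and Arl14ep, Pigm and Lrch3 for Dhx58. Those for Ddx60 were Stard5, Mcph1 and Srpk2, and those for Irf7 were Bub1, Mybl1 and Dek. The correlations ran from 0.989 to 0.999 (n = 6 tumors), and the group difference is part of each of them.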

How the data were processed

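Bulk RNA of 6 tumors was sequenced as paired reads of 150 bases. The values used are the read counts that the authors deposited, not normalized, with each tumor in its own column and matched to its group by name; the submitters' processing notes name cutadapt 1.18, FastQC 0.11.7, STAR 2.7.1a, featureCounts 1.6.4 and the mm10 build. The strand setting and how multi-mapping reads were handled are not given in the sources used here. Gene lengths came with the deposited table, whose positions were the same as in GENCODE M21 for each of the 38927 identifiers of equal version. Library totals ran from 13837932 to 32555494 counts, so low genes were read less precisely in RGS tumors.

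Genes whose median reached 5 counts in either group (15355 of 40166) were tested in R 4.3.3 with edgeR 4.0.16 (TMM, quasi-likelihood F test), tested on simulated data, with Benjamini-Hochberg adjustment and a threshold of 0.05. The standard error of a log2 fold change is its absolute value over the root of F. CPM and RPKM used full library totals times TMM factors. Ratios were compared by exact permutation. Alternatives were DESeq2 1.42.0, limma 3.58.1 voom with quality weights, other scalings and filters, thinning to the smallest library, removal of mitochondrial and ribosomal protein genes, and leaving out each tumor.

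All members were named, and from each further list up to 2 genes called lower and 2 called higher with the smallest adjusted p, and always Mb21d1, Ifnb1 and Cxcl10; for each called member the 3 most alike genes were named. Some genes that this rule takes are not reported here. Marker genes and single genes of small counts were named after their values were seen. Members and lists were chosen with earlier results of these data known. Figures and motif searches used Python 3.11.15 and matplotlib 3.10.9.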

Additional observations from a re-analysis of the deposited data

How the results depend on the processing

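Ddx58, Ifih1, Dhx58, Ddx60 and Irf7 passed the threshold with the same direction in 15 of 15 alternatives; log2 fold changes ran from -1.44 to -0.94 for Ddx58, from -3.30 to -2.84 for Ifih1, from -2.21 to -1.47 for Dhx58 and from -4.41 to -4.16 for Irf7. Tmem173 and Irf3 passed in 0 of 15, with adjusted p from 0.0561 to 0.288 and from 0.315 to 0.938, and Tlr3 in 0 of the 12 that gave it a value, since edgeR's filterByExpr, thinning and leaving out vehicle replicate 7 took it below the filter. With limma voom and quality weights Mavs passed (log2 fold change 0.40, adjusted p = 0.0493), which made 1 member called higher, and so did Tbk1 (-0.58, adjusted p = 0.0239). Tbk1 also passed with library size only (-0.67). Leaving out each tumor gave between 0 and 1 members called higher, log2 fold changes from 0.21 to 0.55 for Mavs, past the threshold without vehicle replicate 7, and from -0.77 to -0.35 for Tbk1, past it without RGS replicate 11. Adjusted p over all alternatives ran from 0.0331 to 0.527 for Mavs and from 0.0239 to 0.266 for Tbk1. The cause was not tested. Tlr3 had at most 11 counts in a library.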

Other observations

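Outside the sensing genes, the response element core GAAANNGAAA was in the matched promoters of 10 of 17 interferon-stimulated output genes and 11 of 18 type I and III interferon genes. It was in 5 of 20 RNA sensing cofactors and effectors, 3 of 12 DNA sensing genes and 2 of 14 genes of the adaptor and kinase complexes. Of interferon receptor signaling 2 of 11 genes held it, as did 1 of 6 other interferon regulatory factors. There were matches in 0 of 9 negative regulators and in 0 of 5 endosomal receptors and partners. The share over all promoters was 3.45%. Ifitm3, the output gene called higher, held the core as did Cxcl10, Ifit3 and Bst2, which were called lower. These are counts of matches in 300 bases and were not tested.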
